A study of Danio rerio with 4 samples.

Results

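A small population of zebrafish cells, labelled innate-like and lymphoid, that carry RNA of eomesa, rorc, il2rb, ccr2 or mef2b was described in 3-day-old larvae. Members were chosen by measured RNA. A cell was a member when at least 2 of these 5 genes had a unique molecular identifier (UMI, 1 counted RNA molecule), when the neuronal genes elavl3 and elavl4 were both at 0, and when fewer than 3 of 8 macrophage genes were detected. The rule found 489 members among 61632 kept cells at 3 days post fertilization (dpf), out of 64800 kept cells in the whole series.

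The study treated dechorionated embryos from 30 to 50 hours post fertilization with 20 µM SB431542, an inhibitor of the TGF-β type I receptor ALK5 (ALK5i below), or with the solvent DMSO. The 2 libraries used here hold cells sorted for gata2b GFP from whole 3 dpf larvae after ALK5i or after DMSO. The other libraries hold mpeg1.1 mCherry+ cells sorted from 6 dpf larvae, again after ALK5i or DMSO. Embryos were treated in wells of 40 to 50 animals, so a library pools many larvae, and there was 1 library per group. No p-value between treatments is therefore given: intervals are exact binomial or Poisson 95% intervals that cover counting error only, and treatment cannot be told apart from library. The zebrafish line and the construct behind the GFP sort were not given in the sources used here.

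Eomes, the T-box factor encoded by eomesa, is known from mammals for its part in natural killer (NK) cells and cytotoxic T cells, and RORγt, encoded by rorc, for its part in type 3 innate lymphoid cells, Th17 cells and developing thymocytes. il2rb encodes the receptor chain shared by interleukins 2 and 15, on which NK cells depend in mammals. ccr2 encodes a chemokine receptor, and mef2b a MADS-box transcription factor. In zebrafish the first lymphoid cells reach the thymus early in larval life, and gata2b marks blood stem and progenitor cells that form in the embryo.

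There were 170 members among 27473 kept cells with ALK5i and 319 members among 34159 kept cells with DMSO. The 3 dpf libraries held 60001771 and 97212191 UMIs. Members had a median of 1945 UMIs with ALK5i and 2786 with DMSO, against 1795 and 2416 over all kept cells. The 3 dpf libraries shared 248 cell barcodes, 232 of them kept in both. Of the members, 2 had a barcode that was also kept in the other library, and none was a member in both.

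The members were compared with other cells of their own library, in sets built from marker genes that left out EYFP and gata2b. The T set had at least 2 of rag1, rag2, ccr9a, bcl11ba, lck, cd4-1 and dntt (456 cells with ALK5i, 764 with DMSO). The progenitor set had at least 2 of myb, gfi1aa and runx1 (309 and 575 cells). A macrophage set (at least 3 of the 8 macrophage genes, 8911 and 10706 cells) and a neuron set (elavl3 and elavl4, 1276 and 1070 cells) served as cells that should lack lymphoid RNA. Levels are in CPM, the UMIs of a gene per 1000000 UMIs summed over a set. Ratios are log2 of (CPM + 5) over (CPM + 5), so they understate the change of genes with few UMIs.

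The rule genes describe the choice and are no finding. il2rb (ENSDARG00000075720) was detected in 78.8% of members with ALK5i and 81.5% with DMSO. mef2b (ENSDARG00000093170) was detected in 48.8% and 44.5%, and eomesa (ENSDARG00000006640) in 45.9% and 44.2%. ccr2 was detected in 31.8% and 26.3%, and rorc (ENSDARG00000087195) in 20.0% and 28.2%. Most members sat at the threshold: 133 with ALK5i and 249 with DMSO had exactly 2 rule genes, 31 and 61 had 3, 6 and 9 had 4, and none had all 5. Just outside it were 1039 and 1379 cells that passed the exclusions with 1 rule gene. Among members with exactly 2 rule genes, the commonest pairs were rorc with il2rb (30 members with ALK5i, 82 with DMSO) and il2rb with mef2b (36 and 60). These were followed by eomesa with il2rb (24 and 41). The symbol ccr2 covers 2 features, and the members' reads fell mostly on ENSDARG00000105363, found in 51 and 70 members. The other feature, ENSDARG00000079829, was found in 5 and 19 members and in 285 and 335 cells of the macrophage set.

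eomesa and rorc, which share the name of the population, were detected in different cells. Among the 16382 ALK5i cells that passed the exclusions, 119 had eomesa and 132 had rorc, and 0 had both. Among 21515 DMSO cells, 191 had eomesa, 234 had rorc and 1 had both. Such rare genes would rarely meet in a cell in any case: the product of the shares comes to 0.959 and 2.08 cells, so the low overlap alone separates nothing. The other pairs set it in context. eomesa met il2rb in 47 and 90 cells, where the product of the shares is 6.47 and 11.2. eomesa met ccr2 in 32 and 54 cells, against products of 0.835 and 1.13. rorc met il2rb in 34 and 87 cells, against products of 7.18 and 13.7. It met ccr2 in 0 and 1 cells, against products of 0.927 and 1.38, and mef2b in 4 and 6, against products of 1.33 and 3.13. The heat map of co-detection shows eomesa, ccr2 and mef2b meeting one another and il2rb. rorc met mainly il2rb, with mef2b in 3.03% and 2.56% of cells with rorc.

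**Figure D1:**
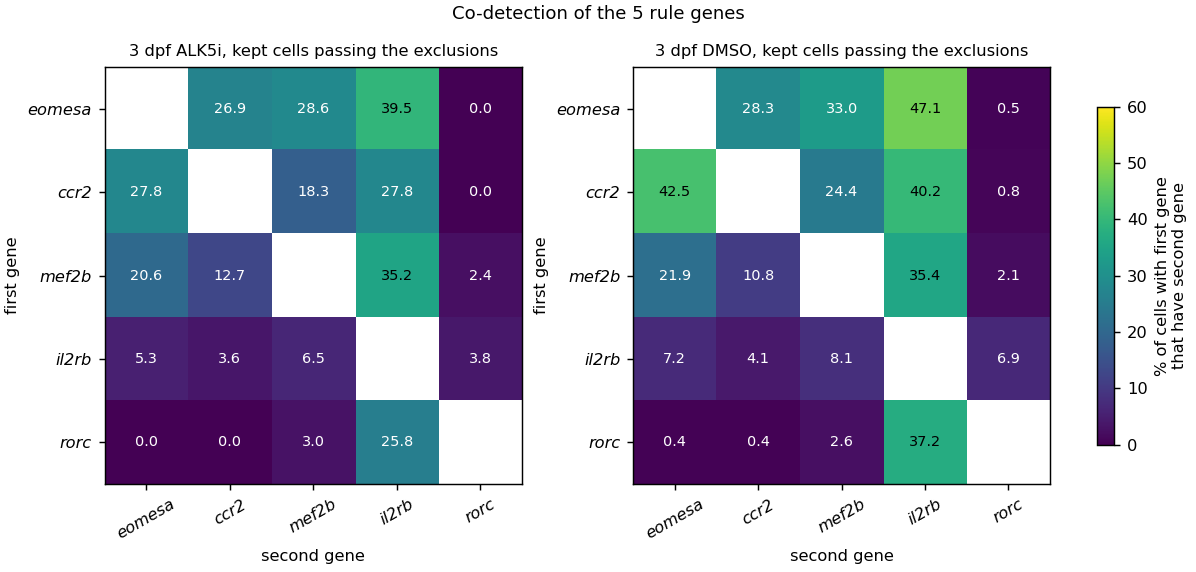
Co-detection of the 5 genes of the rule among 3 dpf cells that passed the neuron and macrophage exclusions, with ALK5i on the left and DMSO on the right; each square gives the percentage of cells with the row's gene that also had the column's gene. With rorc as the row, il2rb was found in 25.8% of cells with ALK5i and 37.2% with DMSO, whereas eomesa was found in 0 and 0.427%.

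The label calls these cells innate-like and lymphoid, and markers outside the rule were read against it. Lymphoid RNA was plain in both libraries. ccr9a (ENSDARG00000055186), a chemokine receptor of thymus-homing cells, was detected in 87.6% of members with ALK5i and 95.3% with DMSO, at 1730 and 1854 CPM, against 177 and 254 CPM in all other cells. The Ikaros-family factor ikzf2 stood at 338 and 322 CPM, against 24.2 and 25.5 CPM in other cells. The interleukin 7 receptor gene il7r stood at 105 and 117 CPM, against 6.13 and 8.67 CPM. Among members with exactly 2 rule genes, ikzf2 was found in 42.1% and 53.0%, and il7r in 15.8% and 22.9%.

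Genes of T cell receptor assembly were nearly absent. rag1, which cuts receptor genes, was found in 0.588% and 0.627% of members, against 9.65% and 11.8% of the T set, whose rule used it. The T cell kinase gene lck was found in 0.588% and 2.82% of members, against 6.36% and 9.55% of the T set, and cd4-1 in none. lck and cd4-1 were in the rule of the T set too. T cell receptor sequence was not absent, however. TCRbC2, an added sequence named as a receptor β constant region, was found in 7.98% of members with ALK5i and 8.09% with DMSO once every cell was thinned to 1000 UMIs, against 14.3% and 9.42% of the T set. It was found in 0.0923% and 0.0970% of the neuron set at that depth. The added TCRaC sequence had 1 UMI in the members with ALK5i and 0 with DMSO, and in the T set 0 and 1 UMI.

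Cytokines that define mature innate lymphoid classes were scarce. Of 16 effector cytokine genes matched to the features, 8 had no UMI in any member, among them il4, il22 and il17a/f1. ifng1 had 0 UMIs in members with ALK5i and 2 with DMSO, and il13 had 0 and 1. Cytotoxic genes were found in few members: at least 3 of them met in 6 members with ALK5i (3.53%) and in 28 with DMSO (8.78%), against 0.0440% and 0.103% of other cells. The label therefore holds for lymphoid RNA summed over the members, and was not shown for each of them. The members are not 1 cell type by these genes, and nothing measured here separates innate cells from T cells throughout. They are called members below. Neither eomesa nor rorc was detected in 34.1% of them with ALK5i and 27.9% with DMSO. These genes set 3 subsets: eomesa members (eomesa without rorc), rorc members (rorc without eomesa) and members with neither. These subsets were set after the data were seen.

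RNA of other cell types was present in part of the members. At least 3 macrophage genes of a wider list of 20 symbols met in 21 members with ALK5i (12.4%) and 88 with DMSO (27.6%). Of other cells, 43.9% and 44.7% had as many. The list holds the 8 macrophage genes of the rule, so the rule partly set the lower share in members. The counts were 10 and 51 for pigment cell genes (5.88% and 16.0%, other cells 31.5% and 45.8%). They were 9 and 76 for erythroid genes (5.29% and 23.8%, other cells 5.63% and 21.2%). For neutrophil genes they were 8 and 38 (4.71% and 11.9%, other cells 28.8% and 34.1%). For antigen presenting and dendritic genes they were 7 and 17 (4.12% and 5.33%, other cells 3.18% and 5.00%). At least 3 neuron genes met in no member. The pigment gene gch2, which makes pteridines, was found at 1000 UMIs per cell in 30.7% and 44.7% of members, 26.7% and 48.8% of the T set, 26.1% and 40.1% of the progenitor set, 26.8% and 46.7% of the neuron set and 27.3% and 45.1% of the macrophage set. It was found less often with ALK5i in each of these sets. The doublet caller Scrublet marked 4 members with ALK5i (2.35%) and 18 with DMSO (5.64%), against 7.03% and 8.09% of all kept cells.

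Members were 0.619% of kept cells with ALK5i (0.529 to 0.719) and 0.934% with DMSO (0.835 to 1.04), a difference of -0.315 percentage points (-0.453 to -0.176). Depth moves this share, because the rule needs detected genes. With every cell thinned to 1000 UMIs before the rule, 80 of 22312 ALK5i cells (0.359%) and 119 of 29926 DMSO cells (0.398%) were members, and the difference was -0.0391 points (-0.144 to 0.0700). Thinning left out 5161 and 4233 shallower cells. A lower share of members after ALK5i was thus not detectable at equal depth. The share is also one of all sorted cells, many of them without EYFP. As a share of kept cells with an EYFP UMI the difference was -0.351 points, with an interval that includes 0.

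The sort was for gata2b GFP, and the features include added EYFP and GFP sequences. No kept cell of either 3 dpf library had a GFP UMI, while EYFP was abundant. Neither EYFP nor gata2b was used by the rule. The labels do not tie EYFP to the sorted reporter, so it is given as a measured transcript. An EYFP UMI was found in 41.2% of members with ALK5i (33.7 to 49.0) and in 46.7% with DMSO (41.1 to 52.3), a difference of -5.53 points (-14.5 to 3.72). At 1000 UMIs per cell the shares were 37.4% and 35.9%. They were lower than in the T set (66.1% and 62.7%) and the progenitor set (61.9% and 65.7%), and higher than in the macrophage set (2.16% and 4.56%) and the neuron set (1.48% and 3.298%), with no overlap of the intervals within either library.

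EYFP detection differed among the members more than between treatments. At 1000 UMIs it was found in 21.6% of eomesa members with ALK5i (12.9 to 32.7) and 19.4% with DMSO (13.1 to 27.1). Among rorc members it was found in 52.9% (18 of 34 cells) and 51.7% (46 of 89), and among members with neither gene in 49.1% and 45.9%. As a level, EYFP stood at 855 and 676 CPM in eomesa members, 3405 and 2336 CPM in rorc members and 3959 and 3671 CPM in members with neither. By the number of rule genes, detection was 14.4% and 15.5% in cells with 0, and 51.5% and 50.2% in cells with 1. It was 31.3% and 26.0% in cells with 2, and 7.14% (1 of 14 cells) and 17.6% (3 of 17 cells) in those with 3. Of cells with 4, 0 of 2 and 1 of 2 had EYFP. In the plot of EYFP detection the eomesa members are the lowest of the members' subsets in both libraries, and still above the macrophage and neuron sets.

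**Figure D2:**
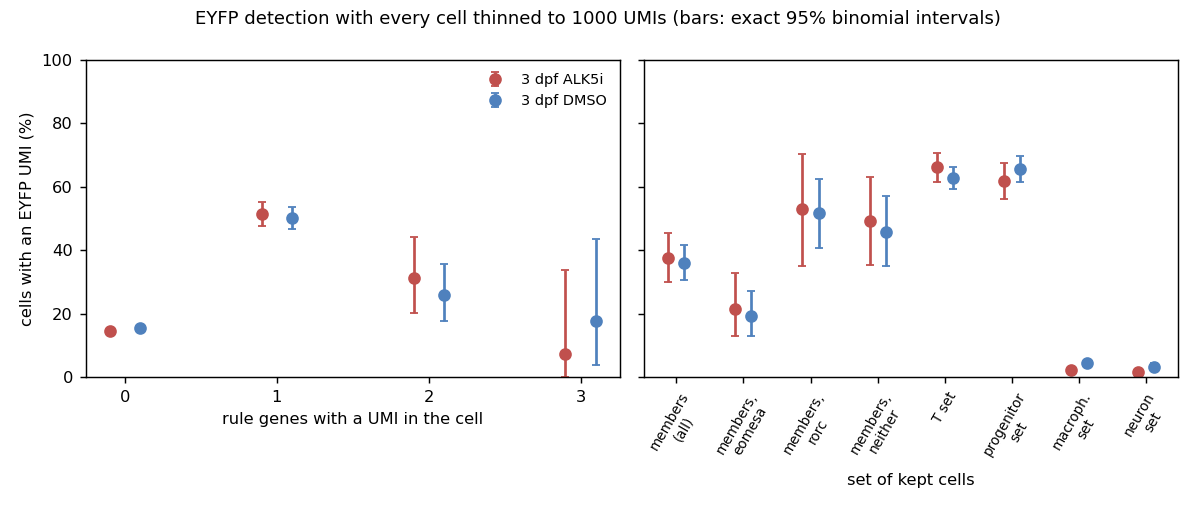
Percentage of cells with an EYFP UMI after thinning every cell to 1000 UMIs, by the number of rule genes detected at that depth among cells that passed the exclusions (left) and by set of kept cells (right); ALK5i in red, DMSO in blue, bars are exact 95% binomial intervals. Detection was 37.4% and 35.9% in all members, 21.6% and 19.4% in eomesa members and 52.9% and 51.7% in rorc members.

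The endogenous gata2b gene followed a like order. It stood at 110 CPM in members with ALK5i and 57.8 CPM with DMSO, against 193 and 170 CPM in the T set and 151 and 124 CPM in the progenitor set. A gata2b UMI was found in 13.5% and 9.72% of members, a difference of 3.81 points (-1.92 to 10.4). At 1000 UMIs it was found in 7.98% (13 of 163 cells) and 3.56% (11 of 309), a difference of 4.42 points (0.185 to 9.84), against 0.461% and 0.388% in the neuron set. These cells are few. At full depth gata2b was found in 6 of 78 eomesa members with ALK5i and 1 of 140 with DMSO. It was found in 5 of 34 and 8 of 89 rorc members, and in 12 of 58 and 22 of 89 with neither. At 1000 UMIs it was found in 4 of 74 and 1 of 134 eomesa members and 3 of 34 and 2 of 89 rorc members. Among members with neither it was found in 6 of 55 and 8 of 85. The intervals of eomesa and rorc members overlapped at that depth in each library.

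Against all other kept cells, 707 of 20838 genes (3.39%) were at least 2-fold higher in members in both libraries and 2698 (12.9%) at least 2-fold lower. The members were picked from these cells, so the counts describe them and test nothing. Of 28 innate lymphoid transcription factor genes tested, 9 were higher in both libraries and 3 lower. The 3 rule genes on that list were left out. Among the higher genes were ikzf2 and runx3, and the T-box gene tbx21 stood higher (47.2 and 33.9 CPM, against 0.545 and 0.479 CPM in other cells). The HMG-box gene tox2 stood at 393 and 373 CPM, against 123 and 115 CPM. id2a, an inhibitor of E proteins on which NK and innate lymphoid cells depend in mice, stood at 519 and 341 CPM, against 184 and 156 CPM.

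Of 21 lymphoid cytokine receptor genes 7 were higher in members and 4 lower, and of 19 chemokine receptor features 5 were higher and 2 lower. il2rga, the common γ chain that pairs with il2rb, stood at 131 and 128 CPM, against 28.4 and 28.0 CPM in other cells. csf2rb, the shared chain of the IL-3, IL-5 and GM-CSF receptors in mammals, stood at 236 and 200 CPM, against 56.7 and 45.2 CPM. Of 29 T cell genes 11 were higher and 3 lower, and of 11 cytotoxic genes 5 were higher and 1 lower. The cytotoxic genes were gzm3.3, gzm3, gzmk, nkl.4 and prf1.1, which encode granzymes, an NK-lysin and a perforin. gzm3.3 stood at 60.3 and 80.8 CPM, against 0.784 and 0.802 CPM in other cells, and was found in 5.88% and 9.09% of members.

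Neuron, muscle and most macrophage genes were low. All 13 neuron genes, all 12 muscle genes and 18 of 24 macrophage features were lower in members in both libraries. The rule's exclusions partly set this. Antigen presenting and dendritic genes were not low throughout: of 17, 6 were higher in both libraries and 3 lower. Summed, they stood at 435 and 377 CPM, against 419 and 413 CPM in other cells and 151 and 197 CPM in the T set. Against the T set 4 were higher in both libraries and 0 lower. Of 26 HSPC (blood stem and progenitor) genes 4 were higher and 7 lower. The cell cycle lists parted: 30 of 37 G2/M features were higher in members and none lower, while 1 of 26 S phase features was higher. Summed, the S phase genes stood at 545 and 592 CPM, against 438 and 401 CPM in other cells. Against the T set or the progenitor set, 0 G2/M features were at least 2-fold higher or lower in both libraries.

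The 25 leading genes, those with the largest excess over all other cells among genes found in at least 10% of members, had little in common by name. mrtfaa, which encodes a coactivator of serum response factor, led the list at 317 and 235 CPM, against 8.38 and 10.4 CPM (log2 4.59 and 3.96). sftpba, named for surfactant protein B, stood at 99.6 and 87.8 CPM and had no UMI in the T set of either library. fcer1g (ENSDARG00000103276), which encodes a signalling adaptor of Fc and NK receptors, stood at 619 and 395 CPM, against 42.7 and 35.21 CPM in the T set. Further leading genes encode signalling proteins of blood cells: rgs18, wasa, the Src-like adaptor genes sla1a and sla2, and cd247l. dicp1.1 and dicp1.3-4 belong to a teleost family of immunoglobulin-domain receptors whose members are close copies, so reads may be split among them. tradv14.0 carries the name of a T cell receptor variable segment and was found in 18.8% and 31.0% of members. In the heat map of leading genes, ccr9a, ikzf2 and fli1b are as high in the T set as in members, while sftpba, dicp1.1 and fcer1g are dark there. ccr9a was one of the genes that built the T set.

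**Figure D3:**
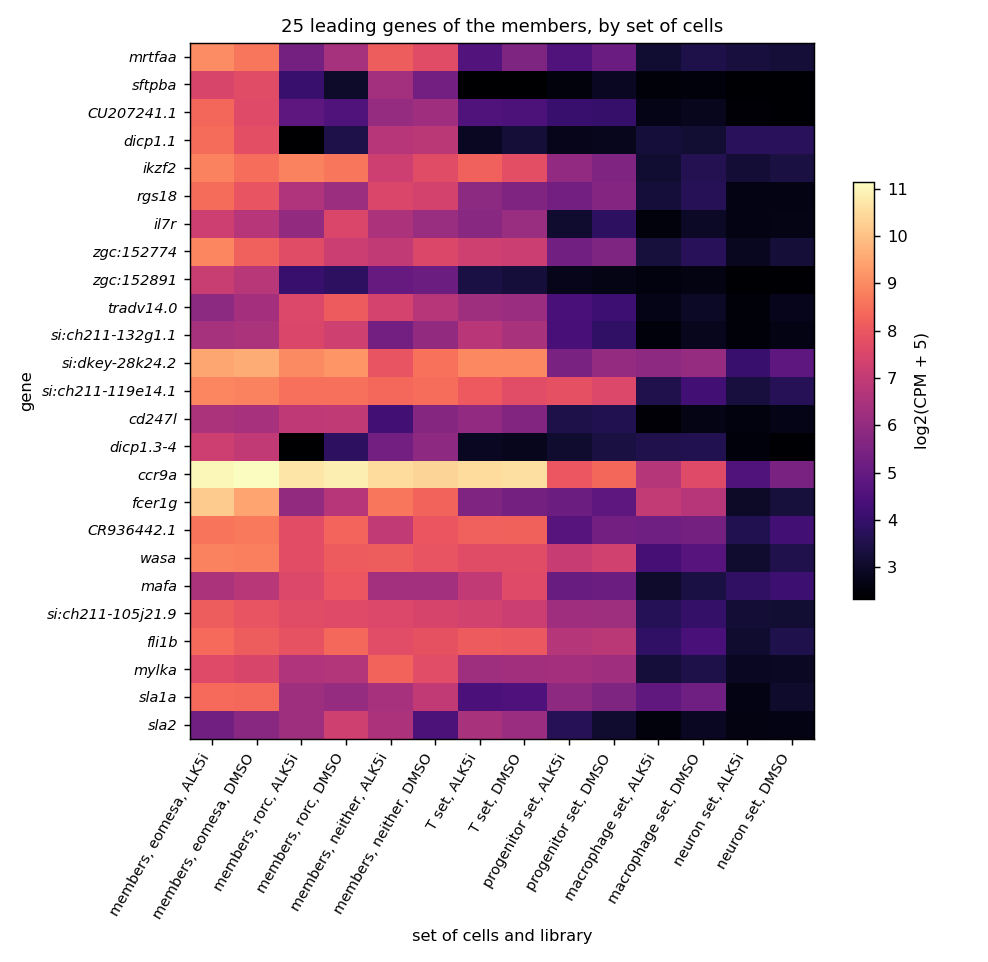
Levels of the 25 leading genes, as log2 of (CPM + 5), in the 3 subsets of members and in the T, progenitor, macrophage and neuron sets, with ALK5i left of DMSO for each set. sftpba had no UMI in the T set, and fcer1g stood at 42.7 and 35.21 CPM there against 619 and 395 CPM in all members.

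Against the T set alone, 220 genes (1.06%) were at least 2-fold higher in members in both libraries and 97 (0.465%) lower. All 5 cytotoxic genes named above were among the higher ones, and of 29 T cell genes 0 were higher and 5 lower: rag1, rag2, lck, bcl11ba and cd247. The first 4 of these were used to build the T set. cd247, the CD3 ζ chain gene, was not, and stood at 23.6 and 43.9 CPM in members, against 182 and 167 CPM in the T set. gata3 stood at 83.9 and 113 CPM, against 214 and 202 CPM, and was past 2-fold lower in the ALK5i library only. Against the progenitor set, 350 genes (1.68%) were at least 2-fold higher in both libraries and 254 (1.22%) lower, with 13 of 29 T cell genes higher and 1 lower, and 2 of 26 HSPC genes higher and 12 lower.

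The eomesa and rorc members differed in much besides the gene that named them. Membership also took another rule gene. This was il2rb in most rorc members and il2rb, mef2b or ccr2 in eomesa members, so the choice of cells partly set the subsets apart. There were 78 eomesa members with ALK5i and 140 with DMSO, 34 and 89 rorc members, 58 and 89 members with neither gene, and 1 DMSO member with both. tbx21, the T-bet gene, stood at 107 and 70.5 CPM in eomesa members and had 0 UMIs in rorc members, where 3 UMIs would be 34.98 and 9.22 CPM. dicp1.1 stood at 341 and 214 CPM in eomesa members, against 0 and 6.15 CPM in rorc members. At 1000 UMIs per cell fcer1g was found in 59.5% and 48.5% of eomesa members, against 8.82% and 6.74% of rorc members. gzm3.3 stood at 140 and 170 CPM, against 0 and 12.3 CPM. csf2rb stood at 408 and 389 CPM, against 0 and 49.2 CPM, and id2a at 969 and 692 CPM, against 175 and 76.9 CPM. spi1b, which encodes PU.1, a factor of myeloid and B lineage cells, stood at 1029 and 997 CPM, against 303 and 129 CPM in rorc members and 857 and 749 CPM in cells outside the members. The chemokine receptor gene cxcr4b stood at 374 and 290 CPM, against 58.3 and 24.6 CPM.

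Several of the genes higher in rorc members were also high in the T set. bcl11ba, a factor that early T cells need in mice, stood at 20.1 and 5.22 CPM in eomesa members, against 420 and 372 CPM in rorc members. The T set had 890 and 826 CPM of bcl11ba, which was one of the genes that built it, so that level was partly set by the choice of cells. zbtb16a, the PLZF gene, known from innate-like T cells and innate lymphoid precursors of mice, stood at 66.8 and 83.5 CPM in eomesa members, against 455 and 513 CPM in rorc members, with 653 and 540 CPM in the T set. gab2, an adaptor gene, stood at 53.5 and 73.1 CPM in eomesa members, against 618 and 593 CPM in rorc members. cd247 stood at 0 and 7.83 CPM, against 70.0 and 117 CPM. gata3 stood at 33.4 and 102 CPM, against 257 and 178 CPM, and tox2 at 247 and 154 CPM, against 653 and 615 CPM. ccr9a did not part the subsets: at 1000 UMIs it was found in 74.3% and 86.6% of eomesa members and 76.5% and 85.4% of rorc members. TCRbC2 was found in 10.8% and 7.46% of eomesa members and 5.88% and 7.87% of rorc members at that depth, with overlapping intervals.

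**Figure D4:**
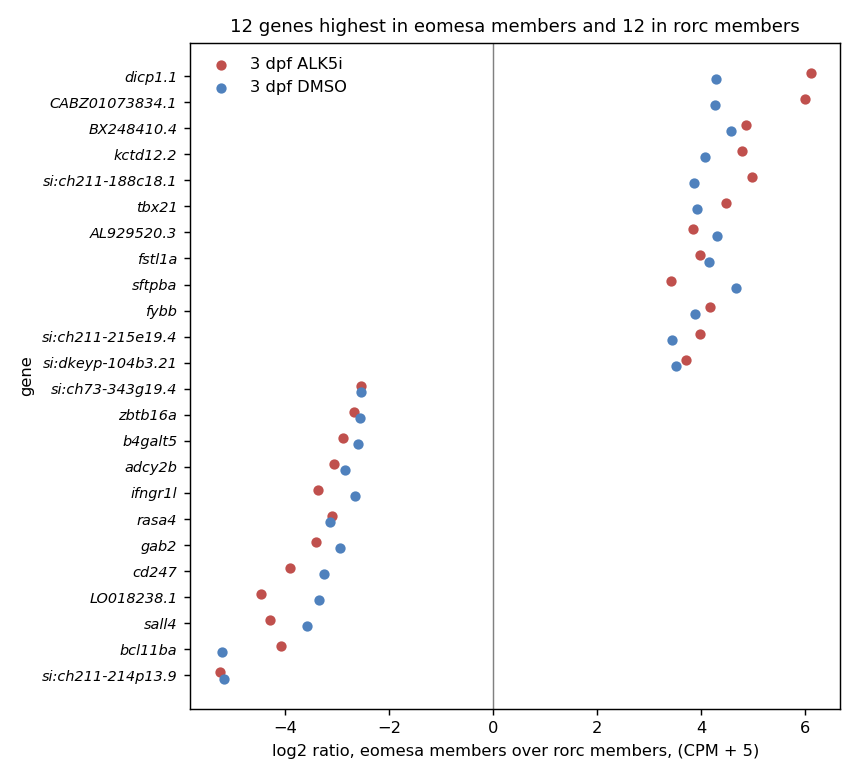
Log2 ratio of eomesa members over rorc members for the 12 genes highest in each, with ALK5i in red and DMSO in blue. Both libraries lie on the same side of 0 for each gene, as the choice of genes requires; where a gene had no UMI in 1 subset (such as tbx21 in rorc members) the size of the ratio is set by the 5 CPM added.

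Cycling RNA was read as the share of cells with at least 3 UMIs of S phase and G2/M genes after thinning to 1000 UMIs. It was 44.8% of members with ALK5i (37.0 to 52.8) and 44.3% with DMSO (38.7 to 50.1). The T set had 59.7% and 60.7%, the progenitor set 70.4% and 65.0%, and the macrophage set 12.1% and 12.6%. The neuron set still had 32.6% and 26.3%, and how much of the score is background was not tested. Without thinning the members' shares were 51.8% and 60.2%, a gap that depth moves. The share was 35.14% and 35.07% of eomesa members (26 of 74 and 47 of 134), 55.9% and 57.3% of rorc members, and 50.9% and 45.9% of members with neither. mki67 alone was found in 29.4% and 23.9% of members at that depth, against 9.23% and 7.18% of the neuron set.

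Few of the genes that many members carried in both libraries differed 2-fold between ALK5i and DMSO members. Of 7279 genes with at least 20 UMIs in the members of both libraries together, 88 (1.21%) were at least 2-fold higher with ALK5i and 258 (3.54%) at least 2-fold lower, 346 in all (4.75%), and the median log2 ratio was -0.05. Of the most extreme genes several came from 1 cell. The globin gene hbbe1.3 had 767 UMIs with ALK5i, 743 of them in 1 cell, against 163 with DMSO. The keratin gene krtt1c19e had 86 UMIs with ALK5i, all in 1 cell, against 6 with DMSO. The neutrophil lysozyme gene lyz had 14 UMIs with ALK5i, against 908 with DMSO, 518 of them in 1 cell. Values like these describe single cells. Among the 2633 genes found in at least 10% of members in each library, a limit set after the data were seen, 7 (0.266%) were at least 2-fold higher and 5 (0.19%) at least 2-fold lower, with a median of 0.01. The limit leaves out genes that fell below it in either library. cyp1a, in 3.53% of members with ALK5i and 14.4% with DMSO, was left out in this way.

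cyp1a (ENSDARG00000098315), a cytochrome P450 gene induced through the aryl hydrocarbon receptor, was among the 10 lowest ratios and was spread over many members. It had 8 UMIs in 6 members with ALK5i (20.98 CPM) and 201 UMIs in 46 members with DMSO (200.4 CPM), a log2 ratio of -2.98 (-3.89 to -2.12). It was lower with ALK5i in each subset: 0 and 107 CPM in eomesa members, 58.3 and 390 CPM in rorc members, and 20.5 and 113 CPM in members with neither. It was lower outside the members too, at 62.4 and 275 CPM in the T set, 60.2 and 117 CPM in the progenitor set, 16.5 and 34.6 CPM in the macrophage set and 17.3 and 42.9 CPM in the neuron set. The macrophage and neuron sets held less ccr9a RNA with ALK5i as well, at 100 and 195 CPM and 18.6 and 38.4 CPM. The part of background RNA in their cyp1a values was not tested. Among members with at least 3 rule genes the log2 ratio of cyp1a was -1.11, with an interval that includes 0.

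runx3 (ENSDARG00000052826), which encodes a factor of cytotoxic and innate lymphoid cells in mice and a partner of TGF-β signalling, was named here as one of the list genes with most UMIs. It had 165 UMIs with ALK5i (433 CPM, in 40.6% of members) and 858 with DMSO (856 CPM, in 66.5%), a log2 ratio of -0.98 (-1.22 to -0.74). At 1000 UMIs it was found in 27.0% of members (20.3 to 34.5) and 40.5% (34.9 to 46.2). It stood at 314 and 770 CPM in eomesa members (log2 -1.28), 653 and 1147 CPM in rorc members (-0.81) and 425 and 644 CPM in members with neither (-0.60). In the T set it stood at 711 and 928 CPM (-0.38) and in the progenitor set at 131 and 171 CPM (-0.37). In the macrophage set it stood at 47.3 and 78.9 CPM (-0.68) and in the neuron set at 16.6 and 28.3 CPM (-0.63). The measured level was thus lower with ALK5i in every set. The macrophage and neuron sets also held less ccr9a RNA with ALK5i (100 and 195 CPM, 18.6 and 38.4 CPM). The part of background RNA in their runx3 values was not tested, so a change of runx3 in those cells was not shown. The runx3 ratio in members stayed between -1.25 and -0.72 over the alternative settings. With 1 library per group, no test can say whether it is larger in members than in the T set.

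gpr183a (ENSDARG00000010317), which encodes an oxysterol receptor that guides lymphocytes, stood at 199 CPM with ALK5i and 93.7 CPM with DMSO (log2 1.05, 0.61 to 1.48). It was found in 30.6% and 21.6% of members. It was higher with ALK5i in eomesa members (274 and 144 CPM), rorc members (140 and 55.3 CPM) and members with neither (158 and 72.0 CPM). Outside the members it was higher with ALK5i too, at 49.8 and 25.9 CPM in the T set (0.83, 0.38 to 1.26). The progenitor set had 36.3 and 22.7 CPM (0.58, 0.06 to 1.08), and the macrophage set 31.8 and 28.0 CPM (0.16, 0.03 to 0.28). In the neuron set gpr183a had 5 and 10 UMIs. The plot of runx3 and gpr183a shows the ALK5i point below the DMSO point for runx3, and above it for gpr183a, in members and in all 3 subsets.

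**Figure D5:**
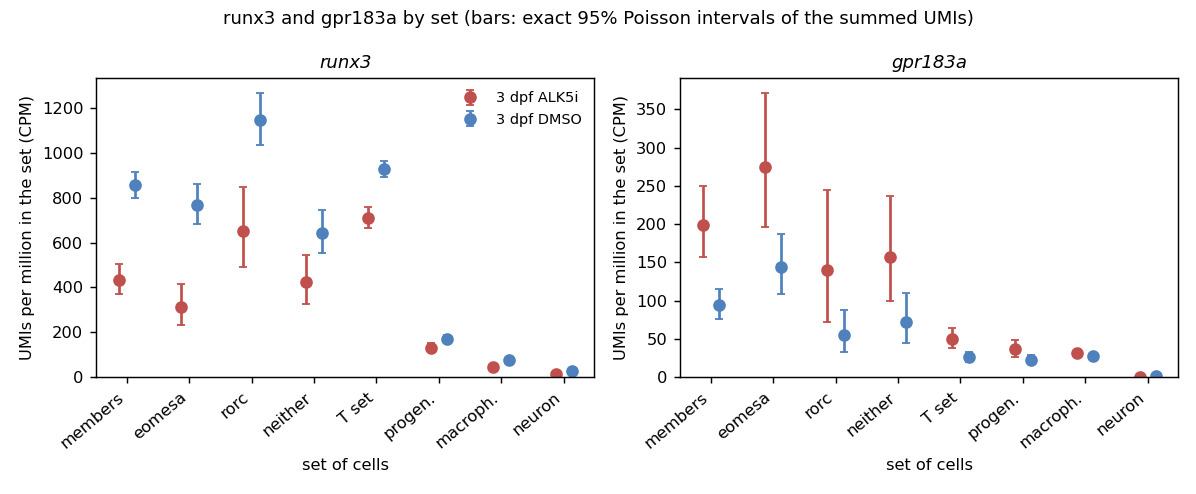
Levels of runx3 (left) and gpr183a (right) in CPM, in all members, their 3 subsets and the T, progenitor, macrophage and neuron sets; ALK5i in red, DMSO in blue, bars are exact 95% Poisson intervals of the summed UMIs. In all members runx3 stood at 433 CPM with ALK5i and 856 CPM with DMSO, and gpr183a at 199 and 93.7 CPM.

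Of the other genes past 2-fold that many members carried, the chemokine gene ccl35.1 stood at 341 and 146 CPM (log2 1.2, 0.86 to 1.54). ccl35.1 is mainly a macrophage gene in these libraries, at 4541 and 3000 CPM in the macrophage set, and its ratio was 0.38 in members with no macrophage gene and 0.01 in members with EYFP. In rorc members it stood at 23.3 and 49.2 CPM (-0.94, -2.92 to 0.92). In the T set it was lower with ALK5i, at 38.7 and 96.7 CPM (-1.22, -1.63 to -0.82). txnipa, which encodes a thioredoxin-interacting protein, stood at 91.8 and 39.9 CPM (1.11, 0.46 to 1.74), and its ratio was 0.55 in members with no macrophage gene, with an interval that includes 0. serinc2 stood at 76.0 and 34.9 CPM, with intervals that include 0 in members with no macrophage gene, in those with EYFP, with mef2b left out and with eomesa or rorc required. On the lower side dbn1, the drebrin gene, stood at 83.9 and 180 CPM (-1.06, -1.61 to -0.54). In eomesa members dbn1 stood at 127 and 358 CPM, and in rorc members it had 1 and 3 UMIs. impdh1b (60.3 and 145 CPM) and prdx1 (97.0 and 227 CPM) were higher in cells outside the members, at 241 and 353 CPM and 926 and 1048 CPM. For prdx1 the ratio was -1.19 in all members and -0.32 once members with 3 or more pigment genes were left out. The part of pigment RNA in these values was not tested further.

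The TGF-β list holds ligands, receptors, SMADs and known response genes, and is the one closest to the drug's target. Of its 20 genes with enough UMIs, 8 were above 0 and 12 below, 0 were at least 2-fold higher and 2 at least 2-fold lower, with a median log2 of -0.33, against -0.05 over all 7279 genes. The receptor genes were scarce: tgfbr1a, one of the ALK5 genes, stood at 26.2 and 24.9 CPM and tgfbr2b at 31.5 and 24.9 CPM. The signal transducer gene smad2 stood at 343 and 289 CPM (0.24, -0.06 to 0.54). Among response genes itgae.1 had 1 and 22 UMIs. itgae.2, an αE integrin gene (in mammals a TGF-β target of tissue-resident lymphocytes), stood at 139 and 224 CPM (-0.67, -1.12 to -0.25), against 194 and 195 CPM in the T set. id3 stood at 404 and 501 CPM (-0.31, -0.57 to -0.05). id2a ran the other way, at 519 and 341 CPM (0.60, 0.34 to 0.85), with 969 and 692 CPM in eomesa members. Without mef2b in the rule the median of the list was -0.06.

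The lymphoid lists lay near the median of all genes. Rule genes were counted here: 3 are on the innate lymphoid transcription factor list and 1 is on the cytokine receptor list. The 25 innate lymphoid transcription factor genes had 11 above 0 and 14 below (median -0.17), with ets1 the only one past 2-fold, at 4.71% and 15.7% of members (log2 -1.12, -2.02 to -0.26). The 13 T cell genes had 4 above and 9 below (-0.16), the 13 cytokine receptor genes 6 above and 7 below, and the 6 cytotoxic genes 3 above and 3 below (0.04). Of 36 G2/M genes 28 were above 0 (0.15) with none past 2-fold. The median of the erythroid list was 2.29, and 1 ALK5i cell held 743 of the 767 hbbe1.3 UMIs with ALK5i.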

How the data were processed

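The deposited values are counts: UMIs per gene and cell barcode in 4 matrices of 27758 features, not normalized. The authors made them with Cell Ranger, version 9.0.0 per the file headers and 9.0.1 per the submitters' processing notes, which also name the build GRCz11. Of the features 13 are added sequences such as EYFP. Libraries came from a 10x Genomics 3' gene expression kit, version 4 of the Chromium Next GEM line, per the labels' protocols.

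Cells were kept with at least 500 UMIs, 300 genes and at most 10% mitochondrial UMIs. This removed 788 and 239 barcodes at 3 dpf. Members and sets were chosen by detected genes, and UMIs were summed per set and library. The members and the gene lists were chosen with earlier results of these data known. With 1 library per group no test between treatments was made, and a gene counted as 2-fold different from a log2 ratio of 1 or -1. The ratio's interval comes from the exact (Clopper-Pearson) interval of the ALK5i share of the UMIs. Thinning drew 1000 UMIs per cell without replacement. The ratio script was tested on simulated data. Doublets were called with Scrublet in scanpy at an expected 0.4% per 1000 cells and stayed in. No columns of other samples were present (0 left unused).

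Genes were named by these rules: the 25 largest excesses over other cells, the 10 highest and 10 lowest ALK5i ratios, up to 4 genes with most UMIs of each list, EYFP, gata2b and the rule genes. The 12 genes highest in each subset and the genes found in at least 10% of members were added after the data were seen, and other genes named from the lists were chosen after their values were seen. A few genes that meet these rules are not reported here. Of 621 list symbols 570 matched. Symbols were taken from the files, which pair them with Ensembl identifiers, and no positions are printed. Tools were Python 3.11.15, numpy 2.4.6, scipy 1.17.1, pandas 2.3.3, scanpy 1.11.5, igraph 0.11.9 and matplotlib 3.10.9.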

Additional observations from a re-analysis of the deposited data

Results flagged for a closer look

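At 6 dpf, where cells were sorted for mpeg1.1 mCherry and enter no comparison of the report, 7 of 1184 kept ALK5i cells met the same rule (0.591%, 0.238 to 1.21), against 2 of 1984 DMSO cells (0.101%, 0.0122 to 0.364). All of them had ccr9a and none had EYFP, TCRbC2 or mpeg1.1. Their median depth was 10181 UMIs with ALK5i and 11225 UMIs with DMSO. eomesa was detected in 5 and 1 of these cells and rorc in 2 and 1. They are given because a signal appeared in a sort for macrophage-lineage cells, and no explanation was tested.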

How the results depend on the processing

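No paired analysis was possible because each group had 1 library. The difference in the share of members, -0.315 points, was -0.0271 with no macrophage gene allowed, -0.351 among cells with EYFP and -0.0391 with every cell thinned to 1000 UMIs, each with an interval that includes 0. The gata2b difference of 3.81 points had an interval above 0 at 13.5 points with at least 3 rule genes, 5.91 with eomesa or rorc required and 4.42 after thinning (chosen after the data were seen). The 88 genes at least 2-fold higher with ALK5i and 258 lower of 7279 tested were 56 and 163 of 1764 with at least 3 rule genes, 142 and 435 of 7279 with 1 CPM added, and 420 and 770 of 17375 with no minimum of UMIs. With at least 3 rule genes, with mef2b left out and with eomesa or rorc required, hbbe1.3 turned to -5.07, -1.38 and -1.64, krtt1c19e to -1.60, -1.41 and -1.43, and the erythroid median to -3.45, -1.05 and -1.30. krtt1c19e was -1.06 without Scrublet calls. serinc2 (-0.10) turned with at least 3 rule genes, the G2/M median with the same (-0.18) and without mef2b (-0.079), and slc22a7a (0.20) without members with 3 or more pigment genes. In the main setting 1 ALK5i cell held 743 of 767 hbbe1.3 UMIs, and all 86 krtt1c19e UMIs with ALK5i lay in 1 cell. Why the values turned was not tested. cyp1a was -1.11 and lyz -0.93 with at least 3 rule genes. The EYFP difference ran from -9.07 to 1.501 points, always with an interval that includes 0. runx3 and gpr183a kept their direction under every alternative run. Among the 25 leading genes 1 comparison with other cells fell below 2-fold: dicp1.1, at 0.67 in members with EYFP. Depth limits every share of cells.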

Other observations

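Clustering the 489 members on 1000 variable genes, with the genes of the rule and its exclusions left out, gave 8 groups. They were drawn from the same cells and describe them only, and shares of cells in them are at full depth. The largest, of 108 cells (39 with ALK5i and 69 with DMSO), had top2a and ect2, genes of dividing cells, among its leading genes, and EYFP was found in 69.4% of it. A group of 66 cells (23 and 43) was led by bcl11ba, zbtb16a and myb, with rorc in 45.5% and EYFP in 81.8%. A group of 62 cells (16 and 46) was led by ccr7, tnfsf14, id3, roraa and cyp1a, with rorc in 66.1% and EYFP in 4 of its 16 ALK5i cells and 21 of its 46 DMSO cells. gata2b was found in 31.8% of the bcl11ba group and 1.61% of the ccr7 group. Of the rorc members, 39 lay in the top2a group, 30 in the bcl11ba group and 41 in the ccr7 group.

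The eomesa side was split as well. A group of 31 cells (10 and 21) was led by gzm3.3, nkl.4 and gzm3, with eomesa in 93.5% and EYFP in 9.68%. A group of 50 cells (23 and 27) was led by dicp1.1, cd74a and tbx21, with eomesa in 72.0%, rorc in none, and EYFP in 1 of its 50 cells. A group of 101 cells (34 and 67) was led by ldlrad4a and dbn1, with eomesa in 69.3% and EYFP in 24.8%. The granzyme genes and the dicp1.1 genes thus led different groups, both low in EYFP at median depths of 1906 and 1945 UMIs. The 2 groups left were led by pigment genes (55 cells, pax7b and slc22a7a, gch2 in all) and by apoeb, apoc1 and epcam (16 cells).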
